A study of Mus musculus with 16 samples.

Results

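AU-rich elements (AREs) are stretches of AUUUA pentamers in the 3′-UTRs of many short-lived mRNAs, and the proteins that bind them set how long such mRNAs last and how well they are translated. The genes described here encode 7 of these proteins. Zfp36 encodes tristetraprolin (TTP), which recruits deadenylases and hastens decay, and Zfp36l1 and Zfp36l2 encode its paralogs. Elavl1 encodes HuR, which stabilizes ARE mRNAs. Khsrp encodes KSRP, a decay-promoting KH-domain protein, and Tia1 and Tial1 encode the translational repressors TIA1 and TIAR. The members were chosen by gene symbol, and all 7 were found among the 14925 genes of the table, with 18 of its 30622 3′-UTR regions that carry a symbol. Each gene is described by the region with the most reads.

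CPEB4 recognizes CPEs, the cytoplasmic polyadenylation elements, which are short and rich in U, and regulates poly(A) tail length and translation. In macrophages stimulated with lipopolysaccharide (LPS), a bacterial cell wall component, p38 MAPK signalling phosphorylates TTP and shifts the balance between TTP and HuR on shared mRNAs. Several mRNAs for ARE-binding proteins carry AREs themselves, so that the proteins can act on their own transcripts and on those of one another.

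To find the mRNAs associated with CPEB4, RNA was recovered with an anti-CPEB4 antibody and sequenced (RIP-seq). The cells were bone marrow-derived macrophages (BMDMs) of wild-type (WT) and total Cpeb4 knockout (KO) mice. The WT samples carry the number 76 in the labels and the KO samples the number 73. All carry the strain label C57BL/6J 129 and were differentiated with L-cell conditioned medium, a source of M-CSF. The age is given only as adult, and the number of animals behind a culture is not given in the sources used here. Cells were left untreated or received 10 ng/ml LPS for 9 h and were crosslinked with formaldehyde. RNA recovered with the antibody (RIP) and RNA of the lysate (Input, depleted of ribosomal RNA) were sequenced, which gave 1 library for each genotype, treatment and assay. Each of the 8 libraries was run on 2 lanes that the deposited columns sum, so no difference below has a replicate check. The test used compares the reads of 2 libraries, not the conditions, and intervals cover counting error only.

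The libraries held from 467696 (KO RIP, untreated) to 2492300 (WT RIP, LPS) 3′-UTR reads. The 3′-UTR of Cpeb4, the targeted gene, was lower in KO than in WT Input, at 52.0 against 130.2 reads per 1000000 3′-UTR reads (rpm) untreated and 52.6 against 136.0 rpm with LPS. Reads over its 3′-UTR therefore remained in the KO, and whether the deletion covers this region is not given in the sources used here. The 10 macrophage markers summed to between 1905 and 4678 rpm in every library. Summed markers of neutrophils, B cells, T cells, erythroid cells, fibroblasts and dendritic cells reached at most 8.55 rpm, although only 1 of 7 neutrophil markers and 2 of 4 B cell markers are in the table. The summed 3′-UTR reads made up 27.3% and 31.8% of the library totals of the KO RIPs, but 48.9% and 70.1% of those of the WT RIPs. On library totals every RIP ratio of WT over KO would be higher by 0.84 (untreated) or 1.14 (LPS) on the log2 scale, and under TMM by 0.19 or 0.22.

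The regions of the members lie on mm10, and their sequences were read from GRCm38.p6. The Zfp36 region is chr7:28376784-28377557 on the minus strand, and that of Zfp36l1 is chr12:80107760-80109588, also minus. Zfp36l2 is at chr17:84183931-84185752 and Khsrp at chr17:57021058-57022692, both on the minus strand. Elavl1 is at chr8:4284782-4289599 and Tial1 at chr7:128439777-128442532, both minus, and Tia1 at chr6:86430368-86433403 on the plus strand. In GENCODE M21, 6 of the 7 lie within the last exon and the 3′-UTR of their transcript. The Elavl1 region runs 600 bases past the annotated end. An exon of the lincRNA Gm26669 on the opposite strand covers 81.5% of the Zfp36l1 region. The counting is not stated to use strand, so sense and antisense reads there cannot be told apart. Exons of other genes cover 3.43% of the Khsrp region and 1.52% of the Tia1 region.

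Windows of 30 bases from the AUUUA-richest stretch of 5 regions are shown 5′ to 3′, with each AUUUA in capitals, because AREs are the sites these proteins bind. They lie at chr7:28376958-28376987 (Zfp36), chr12:80108431-80108460 (Zfp36l1), chr17:84184918-84184947 (Zfp36l2), chr8:4285777-4285806 (Elavl1) and chr17:57021586-57021615 (Khsrp).
Zfp36: ccuuuAUUUAugacgacuuuAUUUAuugua
Zfp36l1: cuuAUUUAacuuaucaaaacguAUUUAuug
Zfp36l2: gaaaaacuAUUUAacuuAUUUAuuaucuug
Elavl1: uuAUUUAUUUAUUUAUUUAuuuuuAUUUAu
Khsrp: gaaaauagcaagaAUUUAaccucugccccg

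The Elavl1 window holds 5 AUUUA pentamers, most of them overlapping, the windows of the TTP family hold 2 each and the Khsrp window 1. Matches were counted on the sense strand with overlaps allowed. Over the whole regions AUUUA occurred 18 times in Elavl1 (4818 bases), 9 times in Zfp36l1 (1829 bases), 8 times in Tia1 (3036 bases) and 5 times in Zfp36l2 (1822 bases). Zfp36 (774 bases) and Tial1 (2756 bases) held 3 each and Khsrp (1635 bases) held 1. Of all 14925 regions, 65.2% held an AUUUA. The nonamer UUAUUUAUU, a high-affinity TTP site, was present 8 times in Elavl1 and once in each of Zfp36, Zfp36l1 and Zfp36l2, against 7.05% of all regions with a match. It was not matched in Khsrp, Tia1 or Tial1. Of regions of 80% to 125% of the length, 21.7% held the nonamer for Elavl1, 4.39% for Zfp36, 9.07% for Zfp36l1 and 9.04% for Zfp36l2. Fewer AUUUA than in Khsrp were held by 14.6% of regions of like length, and fewer than in Tial1 by 28.5%, against 95.5% for Zfp36l1 and 95.1% for Elavl1.

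CPEs were counted as UUUUAU together with its variants UUUUAAU and then UUUUAAAU, as well as UUUUACU or the like motifs UUUUCAU and also UUUUAAGU, besides the noncanonical UUUUGU. Some of these can share bases with an AUUUA. The CPE nearest to the 3′ end of the region is in capitals below for the TTP family. These members were called higher (as defined below) in the RIP of WT over KO, untreated, with LPS or in both. They were picked with those calls known, which rest on 1 library per group. The windows lie at chr7:28376793-28376822 (Zfp36), chr12:80107790-80107819 (Zfp36l1) and chr17:84183944-84183973 (Zfp36l2).
Zfp36: gggguuggaauUUUUAAAUaaaaucuugag
Zfp36l1: aaaaaaaaaacuUUUUGUaacgacuauuug
Zfp36l2: guacuguaaaugUUUUGUaguuucccccaa

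CPE motifs numbered 4 in Zfp36, 12 in Zfp36l1, 9 in Zfp36l2, 32 in Elavl1, 8 in Khsrp, 17 in Tia1 and 23 in Tial1, and 73.4% of all regions held at least 1. Long regions hold more motifs. Among regions of like length, 99.0% held fewer CPEs than Tial1, 96.2% fewer than Elavl1, 91.8% fewer than Zfp36l1 and 77.0% fewer than Zfp36. The authors' own prediction, which also uses the distance to the polyadenylation signal, called CPE-mediated repression for the described regions of Zfp36l1, Zfp36l2, Elavl1, Tia1 and Tial1, activation and repression for Khsrp, and neither for Zfp36.

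In the untreated WT Input the members fell into a high and a low set. Per kilobase of region, Khsrp (254.8 rpm divided by the length in kilobases, rpkm; 95% Wilson interval 230.6 to 281.4) and Zfp36 (247.5; 213.7 to 286.7) were highest. Zfp36l1 (194.8; 174.9 to 216.9) and Zfp36l2 (190.8; 171.1 to 212.8) followed. The intervals overlapped within each of these pairs, and those of Zfp36 and Zfp36l1 overlapped narrowly as well. Elavl1 (16.5; 13.2 to 20.8), Tial1 (7.42; 4.75 to 11.6) and Tia1 (3.55; 1.93 to 6.53) were far lower, and the intervals of Tial1 and Tia1 overlapped. With LPS, Zfp36 headed the WT Input at 405.2 rpkm, ahead of Khsrp at 202.1, Zfp36l1 at 40.6, Zfp36l2 at 25.2 and Elavl1 at 21.7 rpkm. The last pair overlapped in their intervals.

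**Figure D1:**
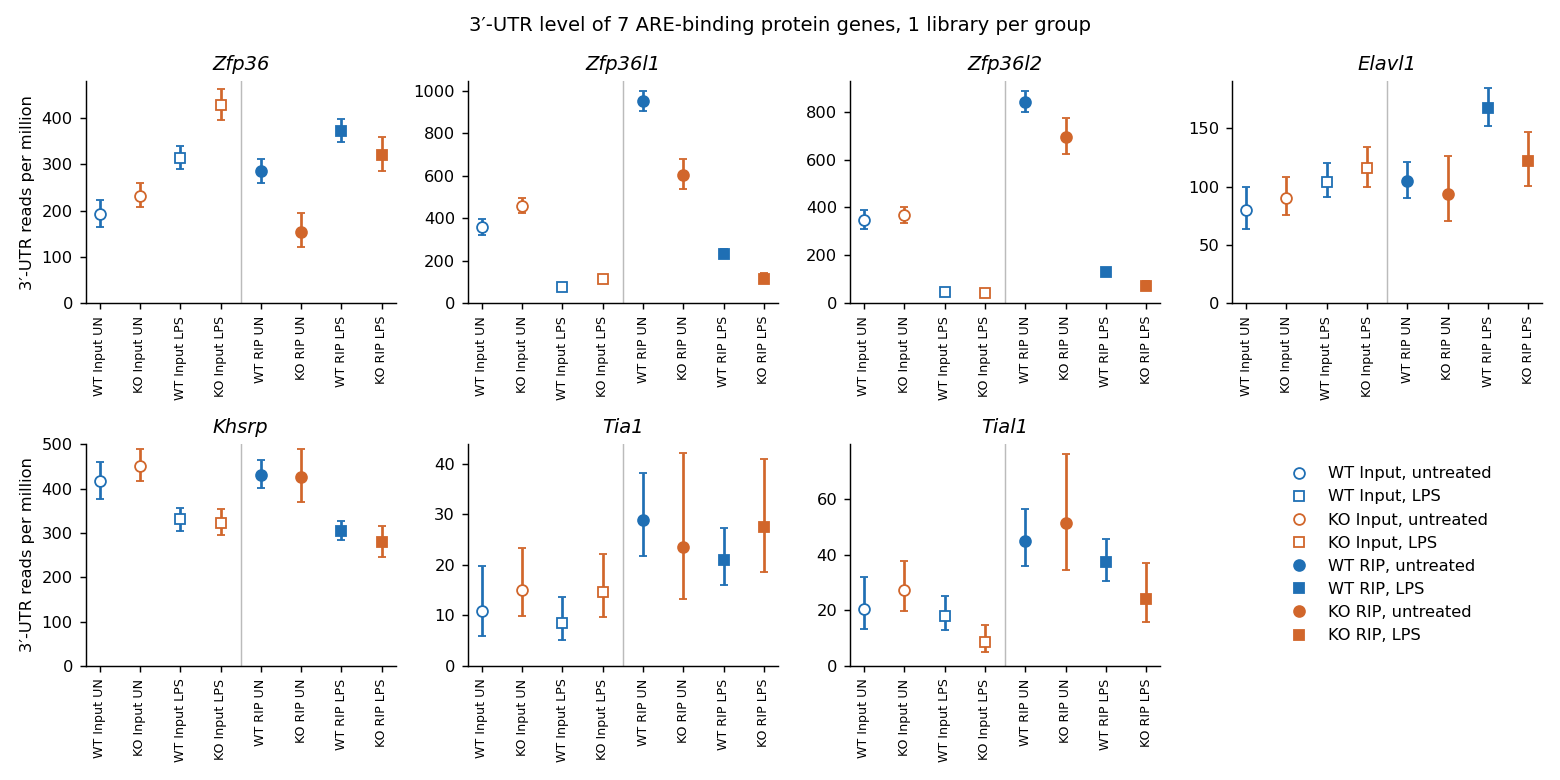
Level of each member's 3′-UTR in rpm, in 1 library for each group (blue WT, orange KO, open Input, filled RIP, circles untreated, squares LPS). Bars are 95% Wilson intervals, and the vertical axes differ between genes and start at 0. The Zfp36 RIP is lowest in the untreated KO at 153.9 rpm, and Zfp36l1 and Zfp36l2 drop with LPS in all 4 pairs of libraries.

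LPS moved the TTP paralogs in opposite directions in the Inputs. Zfp36, an early response gene of LPS signalling, had 191.6 rpm in the untreated WT Input (178 reads) and 313.6 rpm with LPS (595 reads). In the KO Inputs it had 231.5 and 428.7 rpm (307 and 644 reads). The log2 ratio of LPS over untreated was 0.71 (0.46 to 0.95) in WT and 0.89 (0.69 to 1.08) in KO, and both were called higher. Here and below, ratios were computed after adding 1 read to each library, with 95% intervals from the read counts. A gene was called with an adjusted p under 0.02 and a log2 ratio beyond 0.5, or with an unadjusted p under 0.02 and a log2 ratio beyond 1.2.

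Its paralog Zfp36l1 had 356.3 rpm in the untreated WT Input and 74.3 rpm with LPS, and 458.5 and 111.2 rpm in the KO. Its log2 ratio was -2.26 (-2.54 to -1.97) in WT and -2.04 (-2.28 to -1.79) in KO. Zfp36l2 went from 347.7 to 45.9 rpm in WT and from 367.3 to 40.6 rpm in KO. The log2 ratios were -2.91 (-3.25 to -2.57) and -3.16 (-3.54 to -2.78). Both paralogs thus fell in either genotype, Zfp36l2 more than Zfp36l1, and only 2.29% and 1.2% of the 4981 genes with at least 50 reads lay lower than Zfp36l1 and Zfp36l2 in WT. Whether fewer cells or less RNA per cell lies behind a lower level cannot be told apart in bulk libraries.

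Elavl1 and Khsrp moved less than the TTP family, by their log2 ratios. Elavl1 had 79.7 and 104.4 rpm in WT (0.38; -0.01 to 0.76) and 90.5 and 115.8 rpm in KO (0.35; 0.02 to 0.69), and neither was called. Khsrp had 416.6 and 330.5 rpm in WT (-0.34; -0.52 to -0.15) and 451.7 and 323.5 rpm in KO (-0.48; -0.65 to -0.31). Its intervals excluded 0 in both genotypes, but the ratios stayed inside the 0.5 limit. Tia1 had 10 and 16 reads in WT and 20 and 22 in KO, so that its intervals spanned 0 and any change was not detectable at this depth. Tial1 had 36 reads untreated and 13 with LPS in KO (-1.58; -2.47 to -0.70, called lower), against 19 and 34 reads in WT (-0.22; -1.02 to 0.57, not called).

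In all, 1 of 7 members was called higher and 2 lower with LPS in the WT Inputs, and 1 higher and 3 lower in the KO Inputs. Over all genes tested, 13.8% were called higher and 15.9% lower in WT, and 14.4% and 19.7% in KO. The median log2 ratio of the members was -0.34 in WT and -0.48 in KO, against -0.08 and -0.18 over all genes tested.

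**Figure D2:**
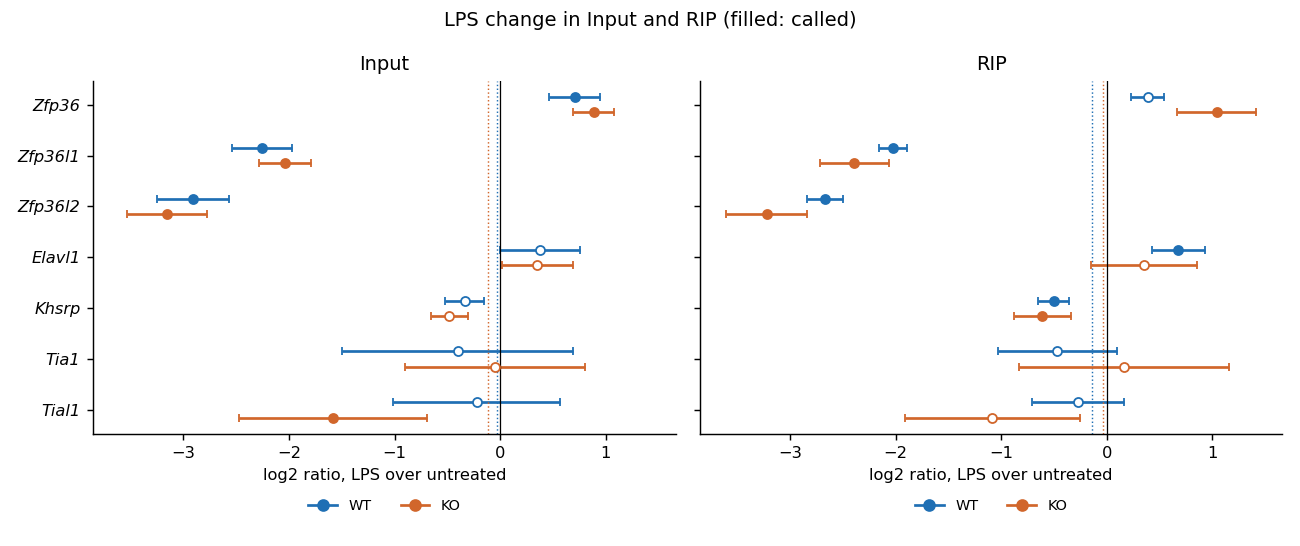
Log2 ratio of LPS over untreated for each member in the Inputs (left) and the RIPs (right), WT in blue and KO in orange. Bars are 95% counting intervals, filled points were called, and dotted lines mark the median of genes with at least 50 reads. Zfp36 lies right of 0, and Zfp36l1 and Zfp36l2 lie near -2 and -3 in all 4 comparisons.

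In the Inputs no member was called between genotypes. With untreated cells all 7 ratios of WT over KO were below 0, from -0.42 (Tia1) to -0.08 (Zfp36l2), and 2 of the 7 had an unadjusted p under 0.05 in the exact binomial test. These were Zfp36 (-0.27; -0.54 to -0.004) and Zfp36l1 (-0.36; -0.55 to -0.17). With LPS the ratios were -0.45 for Zfp36 (-0.61 to -0.29), -0.58 for Zfp36l1 (-0.90 to -0.26) and 0.99 for Tial1 (0.09 to 1.88), the 3 with an unadjusted p under 0.05. Zfp36l2 had 0.17 (-0.30 to 0.64) there, so the values of the TTP family lay on both sides of 0, and none was called. The adjusted p of Zfp36 with LPS was 3.8e-05 in the exact binomial test, so only the 0.5 limit kept it from a call. It was called lower on library totals (-0.51) and with median-of-ratios scaling (-0.53), but not under TMM (-0.49). Among all genes 0.714% were called higher and 1.47% lower in the untreated WT Input, and 1.44% and 1.39% with LPS. The share of all genes with an unadjusted p under 0.05 was not counted. Untreated, the median ratio over all genes tested was -0.02, and ratios below 0 were not particular to the members. Of 17 other ARE and decay-element binding proteins tested, 1 lay above 0 and 3 were called lower. Above 0 lay 3 of 17 decay enzyme genes, 8 of 15 genes acting on TTP and 5 of 8 target mRNAs.

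In the RIPs all 3 genes of the TTP family had ratios of WT over KO above 0 in both treatments, and 2 of them were called in each. This comparison sets RNA recovered from WT cells against that recovered with the same antibody from KO cells. In untreated cells Zfp36 had 284.5 rpm in the WT RIP (474 reads) and 153.9 rpm in the KO RIP (72 reads). The log2 ratio was 0.87 (0.51 to 1.22), a 1.83-fold difference, and Zfp36 was called higher. Zfp36l1 had 950.8 rpm (1584 reads) against 605.1 rpm (283 reads), a log2 ratio of 0.65 (0.47 to 0.83), and was also called. Zfp36l2 had 840.4 against 692.8 rpm (0.28; 0.10 to 0.45) and was not called, with an adjusted p of 0.101 in the exact binomial test. On library totals it was called higher (1.12).

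With LPS the order within the family changed. Zfp36l1 had 233.5 rpm in the WT RIP (582 reads) and 114.7 rpm in the KO RIP (100 reads), a log2 ratio of 1.01 (0.71 to 1.32), and was called higher. Zfp36l2 had 132.0 against 73.4 rpm (329 and 64 reads), with a ratio of 0.83 (0.44 to 1.21), and was called as well. Zfp36 had 372.3 against 320.1 rpm (0.21; 0.02 to 0.41) and was not called. It was called higher on library totals (1.36), but not under TMM (0.44) or median-of-ratios scaling (0.30). The LPS ratio minus the untreated ratio was -0.65 (-1.06 to -0.25) for Zfp36, 0.37 (0.01 to 0.72) for Zfp36l1 and 0.55 (0.13 to 0.97) for Zfp36l2, so that each interval excluded 0. Differences of this size were not rare. Of 4460 genes, 8.23% lay lower than Zfp36, 76.1% lower than Zfp36l1 and 85.9% lower than Zfp36l2.

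The other members were not called in either treatment. Elavl1 had 104.4 rpm in the WT RIP and 94.1 rpm in the KO RIP untreated (0.13; -0.35 to 0.60). With LPS it had 167.7 and 121.6 rpm (0.45; 0.15 to 0.76), inside the 0.5 limit and with an adjusted p of 0.103 in the exact binomial test. It was called under TMM (0.67) and median-of-ratios scaling (0.54). Khsrp was nearly level, at 431.6 against 425.5 rpm untreated (0.02; -0.21 to 0.24) and 304.5 against 278.8 rpm with LPS (0.12; -0.08 to 0.33). On library totals Khsrp had 0.86 and 1.26, both called. Tia1 (0.20 and -0.43) and Tial1 (-0.23 and 0.58) had from 11 to 93 reads per RIP, and all 4 of their intervals included 0.

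The count of members called higher in the WT RIP was 2 of 7 in either treatment, and 0 were called lower. Over all genes tested, 7.14% were called higher and 8.53% lower untreated, and 11.0% and 13.7% with LPS. The median log2 ratio of the members was 0.20 untreated and 0.45 with LPS, against -0.10 and -0.04 over all genes tested. These calls depend on the scaling. On library totals 2770 genes were called higher and 41 lower untreated, where 3′-UTR totals gave 576 and 688, and 4409 and 72 with LPS, where 3′-UTR totals gave 917 and 1142. On that scale 5 and 6 members were called. With a coefficient of variation of 0.4 preset between samples of a group (the exact test of edgeR), 0 members were called in either treatment.

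**Figure D3:**
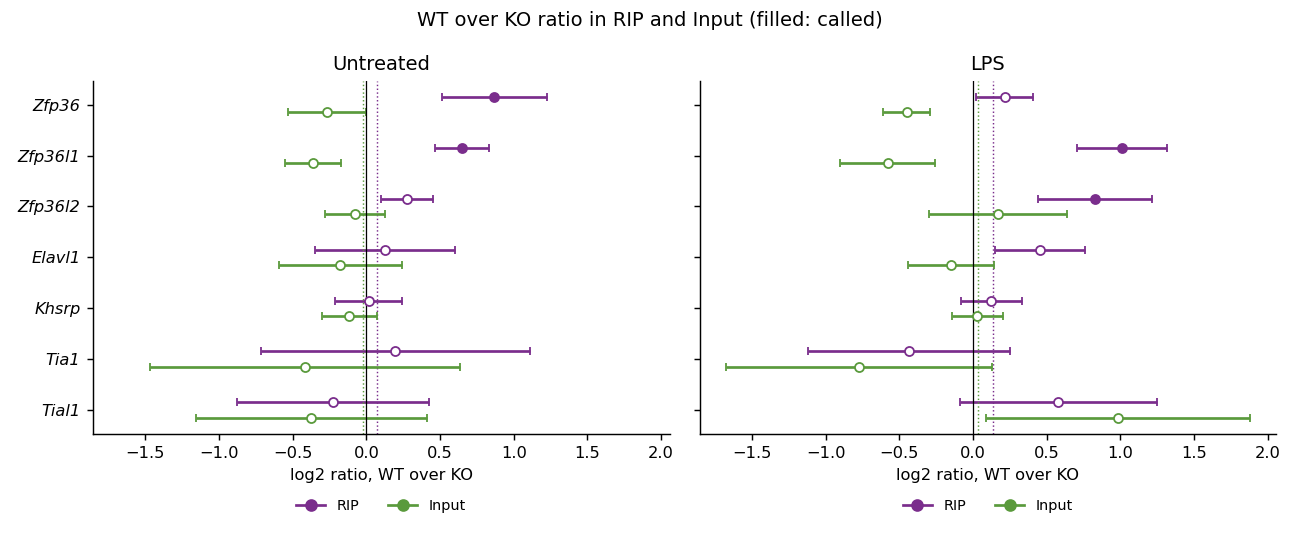
Log2 ratio of WT over KO for each member in the RIPs (purple) and the Inputs (green), untreated on the left and with LPS on the right. Bars are 95% counting intervals, filled points were called, and dotted lines mark the median of genes with at least 50 reads. Zfp36 and Zfp36l1 lie right of 0 in the RIP and left of 0 in the Input, with the Zfp36 RIP at 0.87 untreated and 0.21 with LPS.

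Subtracting the Input ratio raised the values of Zfp36 and Zfp36l1 in both treatments, since their Input ratios were below 0. It lowered that of Zfp36l2 with LPS, whose Input ratio was 0.17. The input-corrected log2 ratio of WT over KO was 1.14 (0.70 to 1.58) for Zfp36 untreated and 0.67 (0.41 to 0.92) with LPS. For Zfp36l1 it was 1.01 (0.74 to 1.28) and 1.59 (1.15 to 2.04), and with LPS 98.0% of 5478 genes lay lower. Zfp36l2 had 0.35 (0.09 to 0.62) and 0.66 (0.05 to 1.27). With LPS, 80.5% of genes lay lower than Zfp36 and 80.2% lower than Zfp36l2. Untreated, 91.9% of 4471 genes lay lower than Zfp36, 89.1% lower than Zfp36l1 and 67.2% lower than Zfp36l2. For Elavl1 the interval included 0 untreated (0.30; -0.33 to 0.93) and excluded it with LPS (0.60; 0.18 to 1.03). Khsrp had 0.13 and 0.09, Tia1 0.62 and 0.34, and Tial1 0.15 and -0.41, each with an interval that included 0. The medians over all genes were -0.05 untreated and -0.07 with LPS.

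**Figure D4:**
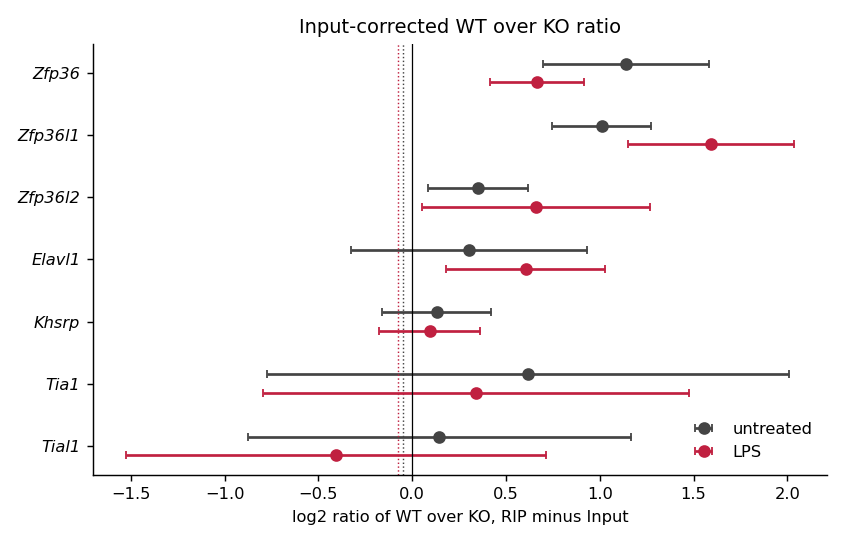
Log2 ratio of WT over KO in the RIPs minus that in the Inputs for each member, untreated in grey and with LPS in red. Bars are 95% counting intervals and dotted lines mark the medians over all genes. The intervals of Zfp36, Zfp36l1 and Zfp36l2 lie above 0 in both treatments, with the highest value at 1.59 for Zfp36l1 with LPS.

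RIP over Input within the WT was called higher for more members, none of which was called with a preset variation of 0.4. Untreated, Zfp36l1 (1.41; 1.24 to 1.58), Tia1 (1.31; 0.37 to 2.26), Zfp36l2 (1.27; 1.10 to 1.44) and Zfp36 (0.57; 0.32 to 0.81) were called higher in the RIP. With LPS these were Zfp36l1 (1.64; 1.38 to 1.91), Zfp36l2 (1.51; 1.17 to 1.85), Tia1 (1.25; 0.46 to 2.04), Tial1 (1.03; 0.47 to 1.59) and Elavl1 (0.68; 0.44 to 0.92). Tia1 had few reads, 48 RIP and 10 Input untreated and 52 and 16 with LPS. Untreated its adjusted p was 0.056 in the exact binomial test, so it was called on the unadjusted p only. Khsrp was level with its Input in both treatments, at 0.05 and -0.12. The Input libraries were depleted of ribosomal RNA and the labels name no such step for the RIPs, so the assays differ in preparation as well.

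In the KO RIPs, the background control of the design, some of the same members lay above Input. The 3′-UTR of Cpeb4 did so as well, with 2.29 (1.87 to 2.72) untreated and 2.79 (2.44 to 3.14) with LPS in KO, against 2.67 (2.40 to 2.94) and 2.50 (2.31 to 2.68) in WT. Its input-corrected ratio of WT over KO was 0.38 (-0.12 to 0.88) and -0.29 (-0.69 to 0.11), so that both intervals included 0. Zfp36l2 was called untreated (0.92; 0.71 to 1.12) and had 0.85 (0.35 to 1.36) with LPS, not called. Tial1 was called with LPS (1.44; 0.47 to 2.40, 21 RIP and 13 Input reads) and had 0.94 (0.21 to 1.67) untreated. Tia1 had 0.70 (-0.33 to 1.72) untreated and 0.91 (0.09 to 1.72) with LPS, neither called, from 11 to 24 reads per library. Zfp36l1 had 0.40 (0.20 to 0.61) and 0.05 (-0.30 to 0.41), neither called, and Elavl1 had 0.08 in both treatments. Zfp36 had -0.57 (-0.94 to -0.21) untreated and -0.42 (-0.62 to -0.22) with LPS in the KO, neither called. In the WT it had the 0.57 given above and, with LPS, 0.25 (0.10 to 0.40), which was not called. In the WT 4 of 7 members untreated and 5 with LPS were called higher, where 23.7% and 25.2% of all genes were called higher and 20.9% and 27.4% lower. In the KO 1 of 7 was called in each treatment, where 13.1% and 14.7% of all genes were called higher and 9.46% and 11.9% lower.

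Within the RIPs the LPS changes largely ran as in the Inputs. Zfp36l1 fell in the WT RIP (-2.02; -2.16 to -1.89) and the KO RIP (-2.39; -2.72 to -2.06), as did Zfp36l2 (-2.67; -2.84 to -2.49 and -3.22; -3.60 to -2.84). Khsrp fell by a smaller amount, with ratios of -0.50 (-0.65 to -0.36) in WT and -0.61 (-0.88 to -0.34) in KO. Both Khsrp calls were lost under TMM, median-of-ratios and library-total scaling, and on library totals its WT value was 0.0163. Zfp36 rose in the KO RIP (1.04; 0.67 to 1.41), while in the WT RIP it had 0.39 (0.23 to 0.55), which was not called, but was under TMM (0.67), median-of-ratios (0.63) and library-total scaling (0.91). Elavl1 rose in the WT RIP (0.68; 0.42 to 0.93), and its KO RIP had 0.35 (-0.15 to 0.85). So 1 of 7 was called higher and 3 lower in each genotype, where 13.8% of all genes were called higher and 21.5% lower in WT, and 12.4% and 16.0% in KO.

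Zfp36l1 has a second annotated 3′-UTR of 734 bases (chr12:80108698-80109431) inside the longer region of 1829 bases, and reads were spread differently over the 2 in Input and RIP. The inner region makes up 40.1% of the length. It held 83.4% of the reads in the untreated WT Input (276 of 331), 79.6% in the KO Input (484 of 608), 85.8% in the WT Input with LPS and 87.4% in the KO Input with LPS. In the RIPs it held 57.0% (WT untreated, 903 of 1584), 67.5% (KO untreated), 60.7% (WT with LPS) and 61.0% (KO with LPS). The highest RIP share, with a Wilson interval from 61.8% to 72.7%, was below the lowest Input share, with an interval from 76.2% to 82.6%. The stretch of 938 bases on its 3′ side holds 7 of the 9 AUUUA pentamers and 9 of the 12 CPEs, the windows shown above included. The inner region lies wholly within the antisense exon of Gm26669. That gene's exons cover 1490 of the 1829 bases, so part of the stretch outside the inner region lies within them as well. Both parts may therefore hold antisense reads, which was not tested.

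The parts of the Zfp36l1 region were then compared between libraries, a split chosen after its values were seen. RIP over Input in WT was 2.76 (2.37 to 3.16) outside the inner region and 0.86 (0.67 to 1.06) inside it untreated, and 3.06 (2.42 to 3.70) and 1.14 (0.85 to 1.44) with LPS. In KO the values were 1.08 (0.69 to 1.46) outside and 0.17 (-0.07 to 0.41) inside untreated, and 1.65 (0.90 to 2.40) and -0.46 (-0.89 to -0.03) with LPS. In the untreated RIPs, WT over KO was 1.04 (0.73 to 1.35) outside and 0.40 (0.18 to 0.63) inside, which differed by 0.64 (0.25 to 1.02). With LPS they were 1.01 and 0.997, and the difference of 0.01 had an interval from -0.61 to 0.63.

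**Figure D5:**
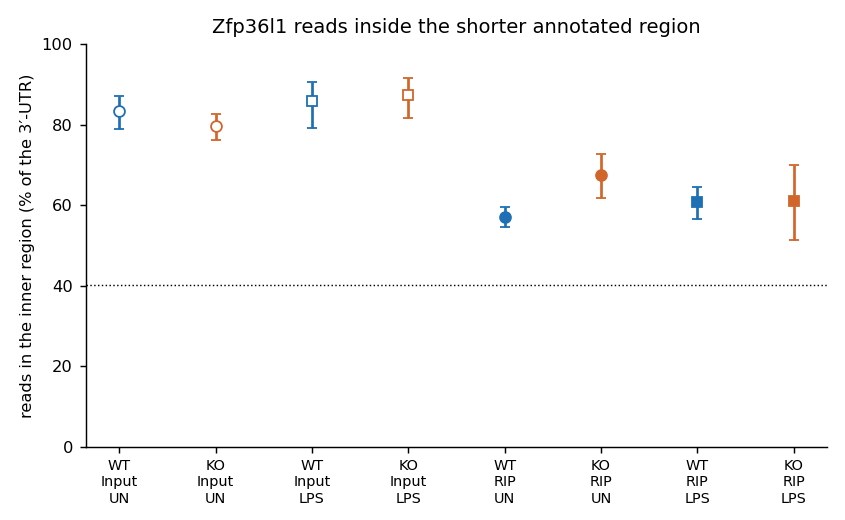
Share of the reads of the Zfp36l1 3′-UTR that overlap its shorter annotated region, in percent, for the 8 libraries (blue WT, orange KO, open Input, filled RIP, circles untreated, squares LPS). Bars are 95% Wilson intervals and the dotted line marks the region's share of the length, 40.1%. The 4 Inputs lie between 79.6% and 87.4% and the 4 RIPs between 57.0% and 67.5%.

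Across the 8 libraries Zfp36l1 and Zfp36l2 had the most alike patterns of any pair of members (Pearson r of log2(rpm + 1) of 0.98), and Zfp36 ran against Zfp36l2 (r of -0.75). The points share genotype, treatment and assay, and r is given as a description over 8 libraries. Of the 4093 genes that reached 10 reads in all 8, those most like Zfp36 were Usb1 (0.98), Etv6 (0.97) and Rhbdf2 (0.97). Those most like Elavl1 were Foxp1 (0.98), Rab21 (0.97) and Mfsd14b (0.97).

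Genes that act with the members were read from lists, and their counts stand beside 7.14% of all genes called higher and 8.53% lower in the WT RIP untreated, and 11.0% and 13.7% with LPS. With the preset variation of 0.4, all genes called higher fell from 576 to 29 untreated and from 917 to 26 with LPS. Of 22 other ARE and decay-element binding proteins, 18 were tested in the RIPs of untreated cells and 0 were called. With LPS, 3 of 18 were called higher in the WT RIP. They were Hnrnpd, which encodes AUF1, at 244 against 38 reads (1.14; 0.65 to 1.62), the roquin gene Rc3h2 (0.80; 0.52 to 1.08) and Igf2bp2 (0.74; 0.42 to 1.05). Of 18 genes for kinases, phosphatases and 14-3-3 proteins that act on TTP, 3 of 15 tested were called higher and 2 lower untreated, and 3 higher and 3 lower of 17 with LPS. The p38 phosphatase gene Dusp1 had 149 against 7 reads untreated (2.40; 1.37 to 3.42), and Map2k3, a p38 activator, had 1.39 (0.76 to 2.01) untreated and 0.95 (0.59 to 1.32) with LPS. Ywhae and Ywhag, which encode 14-3-3 proteins, were lower in the WT RIP with LPS, at -0.67 (-0.82 to -0.53) and -0.66 (-0.75 to -0.56).

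Of 26 genes for mRNA decay enzymes, 2 of 20 tested were called higher in the WT RIP untreated and 3 of 18 with LPS, and 0 lower in both. The deadenylase gene Cnot7 had 1.77 (1.11 to 2.43) untreated and 1.18 (0.86 to 1.49) with LPS, and Pan3, a subunit of another deadenylase, had 1.02 (0.63 to 1.41) and 1.10 (0.68 to 1.52). Of 20 mRNAs known as targets of the members, 6 of 10 tested were called higher and 0 lower untreated, and 8 of 19 higher and 1 lower with LPS. Cxcl1, a neutrophil chemokine, had 241 against 13 reads with LPS (2.60; 1.82 to 3.37). Its Input was higher in WT as well, at 52 against 13 reads (1.58; 0.73 to 2.43, called). In the Inputs with LPS, 5 of 17 of these targets were called higher in WT and 0 lower, among them Csf3 (1.81), Il1a (1.52) and Cxcl2 (0.91), so that a RIP ratio with LPS is not enrichment over Input. Untreated, 0 of 8 were called in the Inputs. Ccl3, another chemokine gene, had 123 against 4 reads in the untreated RIPs (2.80; 1.51 to 4.09) and 36 against 34 in the Inputs (0.59; -0.07 to 1.26, not called). Of 10 macrophage markers, 4 were called lower in the WT RIP untreated, and 6 lower and 1 higher with LPS. Adgre1, which encodes F4/80, had -1.27 (-1.68 to -0.86) and -1.16 (-1.46 to -0.86), and lysozyme (Lyz2) had -1.22 (-1.31 to -1.13) and -1.13 (-1.22 to -1.04). The marker called higher with LPS was Mrc1, at 49 against 3 reads (2.13; 0.66 to 3.60). In the untreated Inputs Lyz2 was called higher in WT (0.67; 0.58 to 0.75), the opposite direction to its RIP ratio. What part these differences have in the ratios of the members was not tested.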

How the data were processed

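RIP-seq was analysed from the authors' tables of read counts over Ensembl 3′-UTRs. According to the methods, reads were aligned to mm10 with Bowtie2 (version 2.2.2) in local mode, duplicates were removed, and overlaps with each region were counted. The deposited counts were identical in 4 tables. The authors' RPKM divides these counts by region length and a larger library total, which served only as an alternative scaling. The deposited region length is in bases, and the authors' fold changes and p-values were not used. Of the rows, 495 without a symbol (0.902% to 1.04% of a library's 3′-UTR reads) were left out of totals and tests. Overlapping isoforms count the same reads again, so 1 region per gene was kept.

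Each pair of libraries was compared with a two-sided exact binomial test on 3′-UTR totals, Benjamini-Yekutieli adjusted over genes with at least 10 reads in the pair. The test was checked on simulated counts that varied by counting error only, as the test assumes. Such a check cannot cover variation between libraries of a group. With 1 library per group no replicate model could be fitted. Levels carry 95% Wilson intervals. The members and gene lists were chosen with earlier results of these data known. All 7 members are named, with up to 4 genes of each list chosen for the largest ratios at 50 or more reads, and the 3 genes most like Zfp36 and Elavl1. Of the study's 3′-UTR sequences, 187 of 187 compared were identical to GRCm38.p6. Alternatives covered scaling, test, read minimum, added reads, adjustment and region. Python 3.11.15, scipy 1.17.1 and edgeR 4.0.16 were used.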

Additional observations from a re-analysis of the deposited data

Results flagged for a closer look

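Of 14 differences between groups (7 members, the RIP ratio of WT over KO between treatments and the LPS change of the Inputs between genotypes), 4 had a 95% counting interval that excluded 0. Such intervals miss 0 by chance in about 1 of 20 cases, cover counting error only, and come from 1 library per group. The RIP ratio of WT over KO was lower with LPS than untreated for Zfp36, by a log2 difference of -0.65 (-1.06 to -0.25), and on library totals by -0.36 with an interval that included 0. It was higher with LPS for Zfp36l1 (0.37; 0.01 to 0.72) and Zfp36l2 (0.55; 0.13 to 0.97). Of 4460 genes, 76.1% lay lower than Zfp36l1, 85.9% lower than Zfp36l2 and 8.23% lower than Zfp36. The targeted gene Cpeb4 had -0.63 (-0.94 to -0.31) in the same comparison. The LPS change of Tial1 in the Inputs was higher in WT than in KO by 1.36 (0.17 to 2.55), from 13 to 36 reads per library. With 1 library per group, no library could be set against others of its group.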

How the results depend on the processing

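Of 152 recomputed counts and medians, 130 stayed within 1.5 times or within counting error. The settings with the longest region and with all regions tested used the same member regions, so the members' values could not change there. With the preset variation 9 of 12 moved, and on library totals 7 of 16. On library totals the members called came to 5 and 6 for the RIP of WT over KO (untreated and LPS). For the Input of WT over KO with LPS there was 1, Zfp36. RIP over Input in KO had 2 and 4, all lower in the RIP. The median input-corrected ratio on library totals rose to 1.18 untreated and 1.80 with LPS. With a preset coefficient of variation of 0.4 in the exact test of edgeR, 0 members were called in both RIP comparisons of WT over KO and in all 4 of RIP over Input. With that test 2 were called in the LPS comparisons of the KO Inputs and of both RIPs, and all genes called higher in WT fell from 576 to 29 untreated and from 917 to 26 with LPS. TMM gave 2 for RIP over Input in untreated KO, and median-of-ratios 1 (Zfp36) for the Input of WT over KO with LPS. Benjamini-Hochberg gave 1 for that Input comparison, which was Zfp36l1 (-0.58, lower in WT) and not Zfp36. For RIP over Input in KO it gave 2 in each treatment. Untreated these were Zfp36l2, higher in the RIP, and Zfp36, lower at -0.57. With LPS they were Zfp36l2 and Tial1, both higher, and a minimum of 50 reads gave 0 there. Of 1064 single-gene values, 1 changed sign after being called (Khsrp, LPS over untreated in the WT RIP, 0.0163 on library totals), 32 lost and 39 gained a call. Elavl1 in the RIP of WT over KO with LPS was called under TMM (0.67) and median-of-ratios (0.54). The cause was not tested. No paired analysis was possible because there is 1 library per group.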

Other observations

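Tial1 has annotated 3′-UTRs that end before its longest one. For those wholly inside it, the share of its reads was higher in the WT RIPs than in the WT Inputs. The region of 1062 bases (chr7:128441403-128442464) held 29 of 75 reads (38.7%) in the untreated WT RIP and 36 of 93 (38.7%) with LPS, against 2 of 19 (10.5%) and 3 of 34 (8.82%) in the WT Inputs. The Wilson intervals of RIP and Input overlapped untreated and not with LPS. In the KO it held 5 of 24 (20.8%) and 9 of 21 (42.9%) in the RIPs and 5 of 36 (13.9%) and 3 of 13 (23.1%) in the Inputs. Another Tial1 region of 380 bases reaches past the 5′ end of the longest one, so its reads are not a share of it. Untreated it had 7 reads in the WT Input and 19 in the WT RIP, beside 19 and 75 for the longest region. With LPS it had 7 and 25, beside 34 and 93, so the higher share in the RIPs did not extend to it. For Tia1 the shorter region of 1813 bases held 70.0% to 90.9% of the reads in the Inputs and 72.7% to 80.8% in the RIPs. Its region of 353 bases (chr6:86430849-86431201) had 0 of 20, 1 of 22, 0 of 10 and 0 of 16 reads in the Inputs (KO untreated and LPS, then WT), 1 of 11 and 2 of 24 in the KO RIPs, and 15 of 48 and 10 of 52 in the WT RIPs. Its region of 404 bases had 0 of 20, 0 of 22, 1 of 10 and 3 of 16 in the Inputs, and 3 of 11, 6 of 24, 8 of 48 and 11 of 52 in the RIPs in the same order. These counts are small and were chosen after their values were seen.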
